A study of Mus with 6 samples.

Results

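The genes described here are 8 genes of the PI3K, Akt and mTOR signalling pathway, chosen by name from the 54532 genes of a deposited expression table: Nyap2, Akt1, Tsc1, Tsc2, Mtor, Rptor, Rictor and Rps6kb1. They were measured by RNA-seq in basolateral amygdala of mice labelled female, in 3 libraries labelled wild type (WT) and 3 labelled CNTNAP4-KO (KO). The series design compares these genotypes. The allele, strain and age of the mice are not in the labels, and nothing there states that a library is 1 animal, so the p-values measure the spread between these libraries. The series title also names a bacterium, but the labels of these 6 libraries give no bacterial treatment. Where 3 values are listed, they are in the order of library numbers 1, 2 and 3. Values are FPKM, fragments per kilobase of gene scaled to library size. Comparisons of level between genes rest on the gene lengths of the deposited table and are approximate. Positions are those of the deposited table, with GRCm38 as the build in the submitters' processing notes.

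Phosphoinositide 3-kinase (PI3K) makes a membrane lipid that recruits the kinase Akt, which inactivates the TSC complex of Tsc1 and Tsc2, a brake on the small GTPase Rheb. Rheb activates mTOR, a kinase that works in one complex with raptor (mTORC1, which phosphorylates S6 kinase to promote translation) and in another with rictor (mTORC2, which phosphorylates Akt). In neurons the pathway is known for its part in cell size, dendrite growth and lasting synaptic change, and loss of Tsc1 or Tsc2 is a known cause of a syndrome with autism features. The pathway is regulated mainly by phosphorylation of its proteins, which RNA levels do not show.

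Of the 8 genes, 7 were higher on average in KO than in WT and Akt1 was lower, but none of the differences passed the test. Of all genes tested, 51.3% were higher on average in KO. Every KO value of Nyap2, Rictor and Rps6kb1 lay above every WT value, with KO to WT ratios of 1.57, 1.35 and 1.22. The core genes Mtor, Rptor, Tsc1 and Tsc2 had ratios of 1.12, 1.16, 1.24 and 1.11 with overlap between the groups, and Akt1 had a ratio of 0.920. All 8 genes passed the filter on low values (a mean of at least 1 FPKM over the 6 libraries).

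In limma, adjusted over 13087 genes, 0 of the 8 genes passed an adjusted p of 0.05, where 0.00764% of all genes tested did (1 gene, which no longer passed with the replicate number as a block), and limma-voom on recovered reads gave 0 of the 8 as well, against the same 0.00764%. At an unadjusted p under 0.05, 3 of the 8 were higher in KO, against 7.05% of all genes tested, and 0 were lower, against 7.25%. Of all genes tested, 923 were higher and 949 lower at that p, a split that became 1224 and 580 when libraries were scaled to a common sum. All KO values lay above all WT values for 3 of the 8, against 11.9% of all genes tested, and below for 0, against 10.1%. The median log2 fold change of the 8 was 0.22, and that of all genes tested was 0.01. The median of the 8 became 0.09 with the length trend removed and 0.14 without WT1. Nyap2 had been named among the genes of smallest p in these same libraries before the list was drawn up, so its count is not independent. Without Nyap2, 2 of 7 had groups that did not overlap and the median was 0.18. These 7 were also chosen with earlier results of these data known. Their counts beside the shares of all genes are therefore a description and not independent either.

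The libraries held 15933029 to 17789798 recovered reads each. Cntnap4, the targeted gene, was at 3.20 ± 0.92 FPKM for WT against 1.18 ± 0.10 for KO (SD, n = 3), with no overlap. Its limma adjusted p was 0.302, so the targeted gene did not pass the test either. All 8 listed markers of glutamatergic neurons of this region were present, at a summed level of 1339 to 2008 FPKM in WT and 1569 to 1968 in KO, and all 8 were higher on average in KO (median log2 fold change 0.14). Markers of striatal and central amygdala neurons summed to 839 FPKM in WT3 and 353 in KO3, and to 59.5 to 213 in the other libraries, and all 8 were lower on average in KO. Mature oligodendrocyte markers were lowest in WT1, at a summed 234 FPKM against 459 to 697 elsewhere, and all 8 were higher on average in KO (median 0.46). All 8 microglial markers were lower on average in KO (summed level 150 to 203 FPKM in WT and 101 to 122 in KO), as were all 8 markers of oligodendrocyte precursors (60.9 to 78.9 and 43.6 to 48.8) and all 7 tested markers each of pericytes and of meningeal fibroblasts. Hypothalamic markers summed to 37.5 FPKM in WT1 and 34.6 in WT2, against 7.89 to 9.73 in the other libraries. Of these 8 markers 3 passed the filter, 2 lower and 1 higher on average in KO. Trh and Avp were at means of 13.9 and 4.69 FPKM in WT against 1.04 and 0.41 in KO, and Crh at 5.85 and 5.94. The remaining lists were mixed in direction. Markers lower on average in KO were 7 of 8 for astrocytes, 3 of 8 for GABAergic interneurons and 5 of 8 for endothelial cells. No listed marker was at 0 in all libraries. In tissue RNA, fewer cells of a type and less RNA per cell cannot be told apart, and the part of cell makeup in the values below was not tested.

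Nyap2 encodes a neuronal adaptor that is tyrosine phosphorylated and binds PI3K. The gene (ENSMUSG00000054976) lies on the plus strand of chromosome 1, from 81076950 to 81341764. Its level was 3.36, 3.42 and 3.26 FPKM in WT1, WT2 and WT3, and 5.63, 4.91 and 5.18 FPKM in KO1, KO2 and KO3. The WT libraries were almost level, at 3.35 ± 0.08, the smallest relative spread of the 8 genes in WT (a coefficient of variation of 2.33%). The KO libraries, at 5.24 ± 0.36, all lay well above them. Between 685 and 786 recovered reads per WT library and 1065 to 1157 per KO library stood behind these levels. The difference was 0.52 (SE 0.09) on the log2(FPKM + 1) scale, which understates the ratio of a gene at this level, with a limma adjusted p of 0.302. It ranked 21 of 13087 by p. This rank is not independent of the choice of Nyap2, which had been named among the genes of smallest p in these libraries.

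The groups overlapped for both related adaptors. Nyap1, the nearest paralog, was at 16.7 ± 0.94 FPKM among the WT libraries against 15.7 ± 3.47 among the KO libraries, with values of 19.2, 15.8 and 12.3 in KO1, KO2 and KO3 that ran from above to below the WT range. Myo16, an unconventional myosin that is the third of the family, was at 4.48 ± 0.63 and 5.23 ± 0.55 with overlap. Neither difference passed the limma test (adjusted p of 0.768 and 0.500).

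Akt1 encodes the kinase that carries the PI3K signal to the TSC complex. The gene (ENSMUSG00000001729) lies on the minus strand of chromosome 12, from 112653821 to 112674884. It was the most abundant of the 8 genes per length, at 38.4, 41.4 and 46.4 FPKM in WT1, WT2 and WT3 and 41.05, 37.98 and 37.1 in KO1, KO2 and KO3. KO1 lay within the WT range and the other two KO libraries just below it. The difference on the log2 scale was -0.11 (SE 0.11, limma adjusted p = 0.628), and it was -0.04 without WT3, the library with the highest value, and -0.18 without WT1, the WT library with the lowest.

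Akt2, a paralog of Akt1, was at 8.09, 10.998 and 18.3 FPKM for WT against 10.9, 12.3 and 13.9 for KO. The WT range enclosed all KO values, and WT3 held the highest value for both Akt1 and Akt2.

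Tsc1 and Tsc2 encode hamartin and tuberin, the partners in the complex that holds Rheb inactive. Tsc1 (ENSMUSG00000026812; plus strand of chromosome 2, from 28641228 to 28691167) was at 4.58, 6.27 and 6.11 FPKM among the WT libraries against 6.93, 8.06 and 6.12 among the KO libraries. WT1 was the lowest and KO2 the highest, and KO3 fell between WT2 and WT3. On the log2(FPKM + 1) scale KO exceeded WT by 0.28 (SE 0.14, with an adjusted p of 0.408 in limma), and 0.15 without WT1. Tsc1 had the widest relative spread of the 8 genes in both groups, with coefficients of variation of 16.5% in WT and 13.9% in KO.

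Tsc2 (ENSMUSG00000002496; minus strand of chromosome 17, from 24595816 to 24632630) was at 10.3, 11.3 and 10.05 FPKM across WT libraries against 11.999, 12.3 and 10.7 across KO libraries. KO3 lay within the WT range. KO minus WT came, as log2, to 0.14 (SE 0.10, adjusted p = 0.520 by limma). Tsc2 overlaps Pkd1 on the opposite strand, at 6.82 FPKM for WT against 8.33 for KO, and since no source used here states whether counting used strand, reads of the shared stretch cannot be told apart. Within a library, Tsc1 stood at 0.447, 0.556 and 0.608 times Tsc2 in WT and at 0.578, 0.654 and 0.570 times in KO, an overlap that gave an exact two-sided permutation p of 0.4, also 0.4 after Benjamini-Hochberg adjustment over the 4 ratios computed. The smallest p that 3 against 3 allows is 0.1. The remaining subunit, Tbc1d7, was at 3.33 ± 0.92 and 3.13 ± 0.26 FPKM, and Rheb itself at 12.8 ± 1.77 and 12.99 ± 0.95.

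Mtor encodes the kinase shared by both complexes. The gene (ENSMUSG00000028991) lies on the plus strand of chromosome 4, from 148448611 to 148557683. It was at 11.9, 13.5 and 11.6 FPKM among the WT libraries against 14.7, 14.6 and 12.3 among the KO libraries. KO1 and KO2 lay above every WT library, while KO3 lay within the WT range. The difference on the log2 scale was 0.15 (SE 0.11, limma adjusted p = 0.534), and 0.23 without KO3. WT3 and KO3, the lowest library of each group for Mtor and for Tsc2, were also the libraries highest in the summed striatal and central amygdala markers. They also had the highest mitochondrial share of reads in their groups, at 8.34% in WT3 against 4.76% and 5.22% in the other WT libraries, and 6.31% in KO3 against 4.10% and 4.43% in the other KO libraries. The part of these in the result was not tested.

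Rptor encodes raptor, the scaffold that recruits substrates to mTORC1. The gene (ENSMUSG00000025583; plus strand of chromosome 11, from 119602905 to 119899576) was at 6.501, 7.99 and 6.89 FPKM across WT libraries against 9.15, 8.24 and 7.33 across KO libraries. KO3 again lay within the WT range, and the other KO libraries above it. On the log2(FPKM + 1) scale KO exceeded WT by 0.18 (SE 0.12, with an adjusted p of 0.481 in limma), and 0.11 without KO1.

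Rictor encodes the subunit that defines mTORC2. The gene (ENSMUSG00000050310) lies on the plus strand of chromosome 15, from 6708379 to 6800401. By the gene length of the deposited table, which is shorter than this span, it is the longest of the 8, at 16930 bases. It was at 3.01, 3.57 and 3.49 FPKM for WT against 4.36, 4.57 and 4.71 for KO, with every KO library above every WT library. The means were 3.36 ± 0.31 and 4.55 ± 0.17, and 952 to 999 reads per WT library and 1213 to 1342 per KO library stood behind them. KO minus WT came, as log2, to 0.35 (SE 0.10, adjusted p = 0.302 by limma). Within a library, Rictor stood at 0.462, 0.447 and 0.507 times Rptor in WT and at 0.477, 0.555 and 0.642 times in KO, with overlap through KO1 (exact permutation p = 0.2, adjusted p = 0.267).

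Other subunits of the mTOR complexes differed in direction. Mlst8, a core subunit of both complexes, was at 6.56 ± 0.93 FPKM among the WT libraries against 6.61 ± 0.64 among the KO libraries, and Mapkap1, of mTORC2, at 12.03 ± 1.75 and 11.2 ± 1.11. Akt1s1, an inhibitory subunit of mTORC1, was at 16.3, 17.8 and 16.7 FPKM across WT libraries against 14.3, 14.6 and 10.8 across KO libraries, all KO values being lower. Deptor, an inhibitor found in both complexes, was at 1.36, 2.65 and 3.20 FPKM for WT against 4.62, 6.37 and 4.75 for KO. Its KO to WT ratio was 2.18, and its log2 fold change of 0.91 (SE 0.23) was the largest among the 100 other pathway genes tested. Deptor and Akt1s1, inhibitors both, thus stood apart between groups in opposite directions, and neither passed the limma test (adjusted p of 0.302 and 0.325). Of the 8 tested genes in this role, 4 had a positive and 4 a negative log2 fold change.

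Rps6kb1 encodes S6 kinase 1, a direct substrate of mTORC1. The gene (ENSMUSG00000020516) lies on the minus strand of chromosome 11, from 86498871 to 86544805. It was at 4.88, 5.10 and 5.48 FPKM among the WT libraries against 6.31, 6.07 and 6.54 among the KO libraries, with every KO library above every WT library. The means were 5.16 ± 0.30 and 6.30 ± 0.24, the log2 fold change 0.25 (SE 0.09), and the limma adjusted p 0.320. Leaving out any 1 library other than WT3 raised its unadjusted p above 0.05. Rps6kb1 overlaps Rnft1 on the opposite strand, at 3.78 FPKM across WT libraries against 3.92 across KO libraries. Rps6kb2, the second S6 kinase gene, was at 5.24 ± 1.29 and 4.75 ± 0.56 FPKM with overlap. The Rps6kb1 to Rps6kb2 ratio was 1.01, 1.21 and 0.820 in WT and 1.42, 1.12 and 1.48 in KO, with overlap through KO2 (exact permutation p = 0.2, adjusted p = 0.267).

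**Figure D1:**
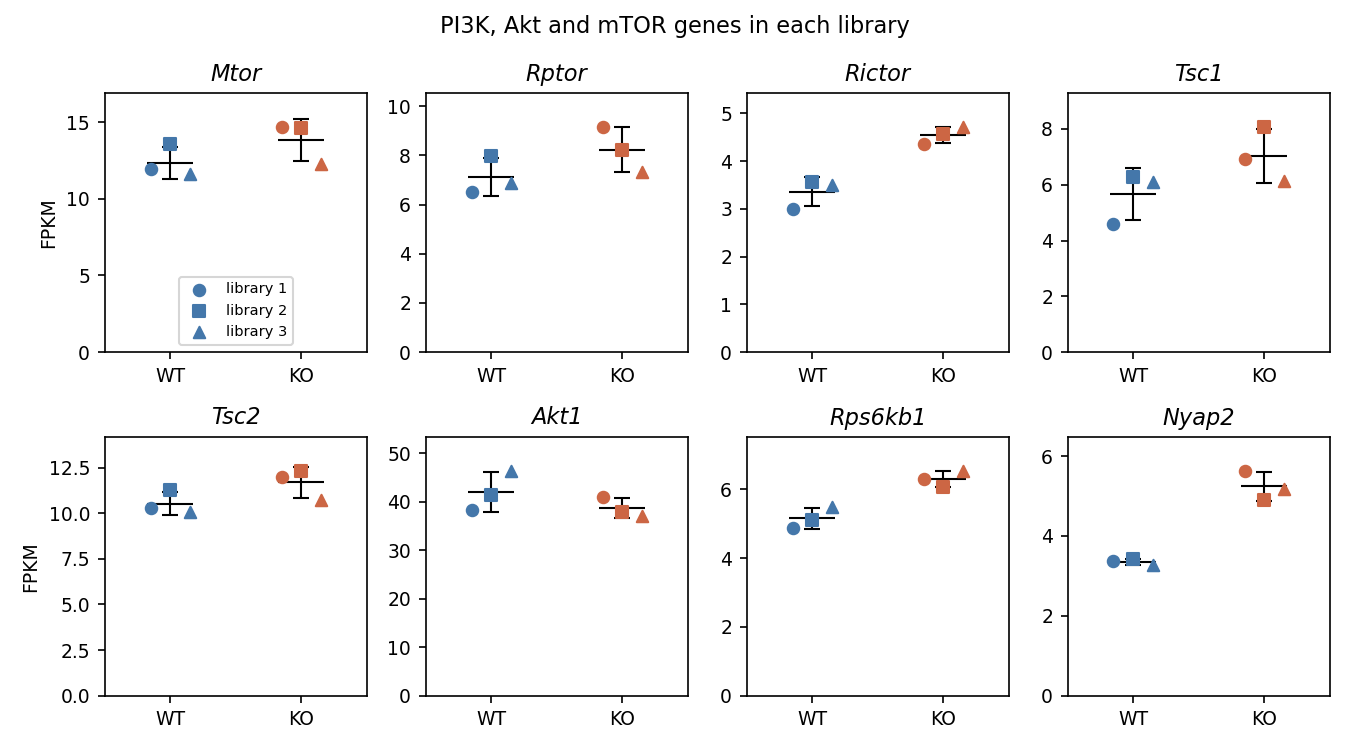
FPKM of the 8 genes in each library (vertical axes from 0, one scale per gene), with WT in blue and KO in orange, the marker shape giving the library number and black bars the mean ± SD of 3 libraries. The groups are separate for Rictor, Rps6kb1 and Nyap2, and KO3 lies within the WT range for Mtor, Rptor, Tsc1 and Tsc2.

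By mean level per length over the 6 libraries, the order was Akt1 (40.4 FPKM), Mtor (13.1), Tsc2 (11.1), Rptor (7.68), Tsc1 (6.34), Rps6kb1 (5.73), Nyap2 (4.29) and Rictor (3.95). The ranges of Akt1 and Mtor did not overlap, nor did those of Tsc2 and Rptor. All other neighbours in this order overlapped over the 6 libraries. Mtor was nevertheless above Tsc2 in 6 of 6 libraries, while Tsc1 was above Rps6kb1, and Nyap2 above Rictor, in 4 of 6.

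How the genes varied together over the 6 libraries is given as a description, since the libraries share their scaling and the genotype difference. Mtor, Rptor and Tsc2 followed each other closely, with a Pearson r of log2(FPKM + 1) of 0.99 for Mtor with Tsc2 and 0.93 for Mtor with Rptor. With the group means removed these values were 0.99 and 0.90. Among the 3 genes with separate groups, r was 0.95 for Rictor with Rps6kb1, 0.92 for Rps6kb1 with Nyap2 and 0.90 for Rictor with Nyap2. With the group means removed those values were 0.62, 0.03 and -0.28. Tsc1 was between, at 0.60 to 0.81 with the 6 genes other than Akt1. Akt1 had an r between -0.50 and 0.00 with the other 7 genes, and with the group means removed all 7 values were positive, at 0.04 to 0.67.

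The genes most like Mtor in pattern, by Pearson r over 6 libraries among 11833 tested genes with a symbol, were Cdh8, a cadherin (r = 0.997), Golga3, a Golgi protein (0.995), and Spred2, an inhibitor of Ras signalling (0.994). Spred2, for example, was at 21.2, 28.8 and 20.7 FPKM for WT against 34.2, 32.0 and 23.2 for KO. The genes most like Nyap2 were Ckap5, a microtubule polymerase (0.993), Slitrk4, a synaptic adhesion protein (0.993), and U2surp, a splicing factor (0.990). Ckap5 was at 18.6, 18.7 and 17.8 FPKM among the WT libraries against 22.8, 21.3 and 22.2 among the KO libraries. Such likeness is common over so few libraries: 105 genes had r above 0.95 with Mtor and 59 with Nyap2.

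Gene length moved with the fold changes. Length here is the value of the deposited table, which for each of the 8 genes is shorter than its span on the chromosome. The log2 fold change of all genes tested had a median of -0.14 at 1000 to 2000 bases, 0.04 at 4000 to 8000 and 0.13 at 8000 or more. Of the 8 pathway genes, 7 are at least 8000 bases long in the table, and Akt1, at 4098 bases, is the shortest. Among the 2213 tested genes of 8000 bases or more, 76.5% had a positive log2 fold change and 26.4% had all KO values above all WT values. The corresponding counts for the long pathway genes were 7 of 7 and 3 of 7.

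**Figure D2:**
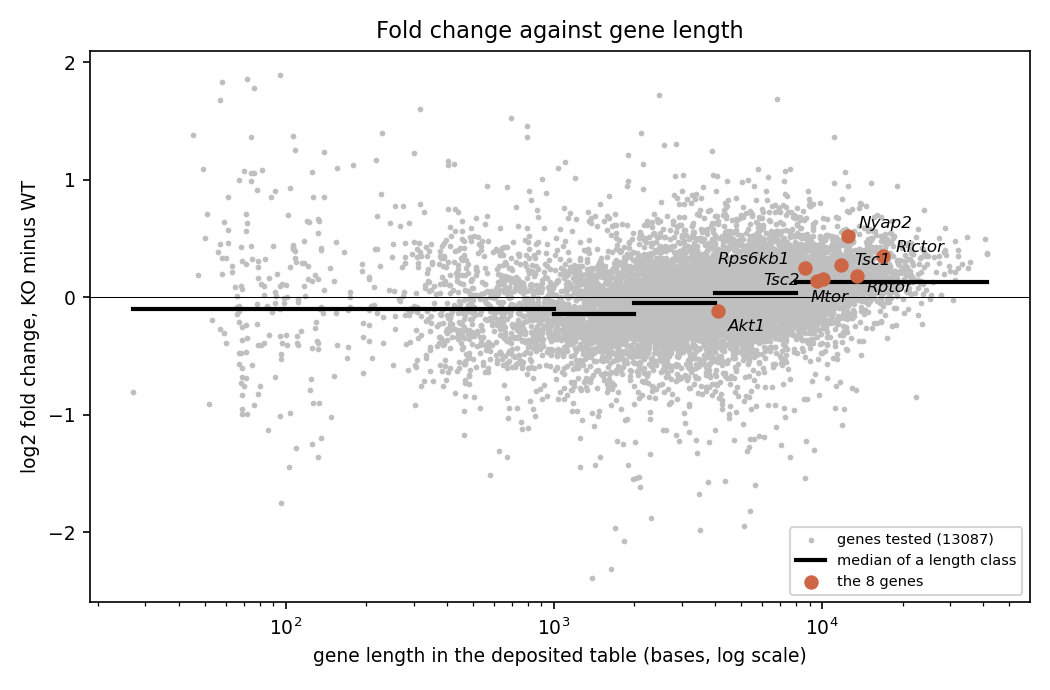
Log2 fold change (KO minus WT, of FPKM + 1) against the gene length of the deposited table (bases, log scale) for the 13087 genes tested (grey). The 8 genes are in orange, and black lines mark the median of each length class. The 7 longest of the 8 genes lie at or above the line at 0.13, and Akt1 lies below 0.

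With the trend of the values with gene length removed from each library, the direction held for all 8 genes but the sizes shrank. Mtor, Rptor and Tsc2 were then at log2 fold changes of 0.04, 0.03 and 0.03, each under its SE of 0.10, 0.10 and 0.09. Tsc1 was at 0.14 (SE 0.12), Rictor at 0.16 (SE 0.09) and Rps6kb1 at 0.15 (SE 0.09), none of the 3 at an unadjusted p under 0.05. Nyap2 was at 0.37 (SE 0.10) and was the 1 gene of the 8 at an unadjusted p under 0.05 in limma, against 6.14% of all genes tested that were higher in KO in that fit. Since Nyap2 had been named among the genes of smallest p in these same libraries, this is not independent of that choice. Akt1 was at -0.10 (SE 0.10).

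**Figure D3:**
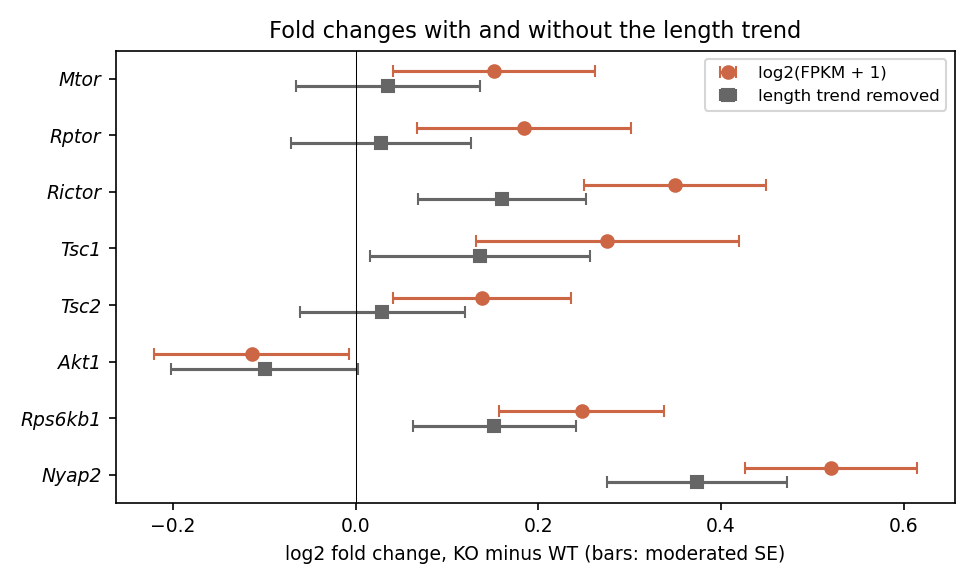
Log2 fold change of each of the 8 genes (KO minus WT; bars give the moderated SE) on FPKM + 1 as deposited (orange circles) and with the length trend removed from each library (grey squares). Mtor, Rptor and Tsc2 come to between 0.03 and 0.04 and Nyap2 to 0.37.

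Around these 8 genes, 106 other genes of the pathway were listed, also with earlier results of these data known. Of these, Pik3cg, Pik3r5, Pik3c2g, Irs4, Inpp4b and Eif4ebp3 did not pass the filter and 100 did. In limma 0 of them passed over all genes, 11 were higher and 4 lower at an unadjusted p under 0.05 (shares in all genes tested: 7.05% and 7.25%), and 66 had a positive log2 fold change, against 51.3% of all genes tested. Their median was 0.06, against 0.01 for all genes tested. It became 0.10 without WT3, where the median of all genes tested was 0.005. With a common sum it was 0.12, where that of all genes tested also rose, to 0.06. With the length trend removed it was 0.06, against 0.002 for all genes tested, and 60 were positive. All KO values were above all WT values for 21, where 11.9% of all genes tested were, and below for 5, where 10.1% were. The 11 nominally higher genes were 5728 to 11774 bases long. Of these, 7 were still at an unadjusted p under 0.05 with the length trend removed. The 4 nominally lower genes were Foxo1, Akt1s1, Lamtor2 and Rps6, with lengths of 1218 to 8665 bases (Foxo1 the longest) and a median of 2329. Of these, 2 (Foxo1 and Lamtor2) were still so.

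The listed subunits of PI3K had a positive log2 fold change for 10 of 11 tested genes, with a median of 0.12. The positive genes include Pik3c3, Pik3r4, Pik3c2a and Pik3c2b, which belong to PI3K classes other than the one that Pik3r1 regulates. Of all genes tested 51.3% were positive, and of those of 8000 bases or more 76.5%. With the length trend removed Pik3r4 and Pik3c2a turned negative, at -0.049 and -0.070, and the others kept their sign. Pik3r1, the regulatory subunit p85 alpha, was at 11.3, 16.2 and 15.1 FPKM across WT libraries against 22.4, 22.7 and 20.3 across KO libraries, a log2 fold change of 0.60 (SE 0.14, limma adjusted p = 0.302). Pik3r2, the most abundant of the role, was at 40.0 ± 3.66 and 39.3 ± 7.35 FPKM. Among receptors and adaptors 7 of 11 were positive. Igf1r, the receptor of insulin-like growth factor, was at 4.88 ± 1.21 and 6.69 ± 0.88 FPKM without overlap, and Fyn, a kinase that phosphorylates the Nyap proteins, was at 26.5 ± 4.53 and 24.2 ± 0.51.

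The phosphatases that oppose PI3K and Akt were positive for 6 of 7 tested genes (median log2 fold change 0.25), against 51.3% of all genes tested. In 4 of the 7 all KO values exceeded all WT values. Such genes made up 11.9% of all genes tested and 26.4% of those of 8000 bases or more. Pdpk1, the kinase that activates Akt, was at 15.8 ± 1.59 and 19.2 ± 0.83 FPKM without overlap.

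Downstream of Akt, Foxo1, a transcription factor that Akt keeps out of the nucleus, was at 4.52, 5.28 and 5.61 FPKM among the WT libraries against 3.56, 2.35 and 4.20 among the KO libraries, all KO values being lower (log2 fold change -0.51, SE 0.17, limma adjusted p = 0.308). Without KO2 its log2 fold change was -0.33, and its unadjusted p rose above 0.05 without WT2, WT3 or KO2. With the length trend removed its log2 fold change was -0.61 (SE 0.17). Gsk3a, the most abundant Akt substrate listed, was at 42.3 ± 3.94 and 44.3 ± 3.64 FPKM. Rhebl1, a Rheb paralog, was at 1.21 ± 0.20 and 1.69 ± 0.29.

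Genes that pass amino acid and energy signals to mTORC1 were divided. Of 13 genes acting at the lysosome, 7 were positive and 6 negative, with a median of 0.00. Lamtor2, of the Ragulator complex that anchors mTORC1 at lysosomes, was at 19.6, 18.1 and 19.9 FPKM across WT libraries against 13.5, 16.3 and 12.3 across KO libraries (log2 fold change -0.43, SE 0.12, limma adjusted p = 0.302), and Rraga, a Rag GTPase, at 66.7 ± 12.6 and 66.3 ± 8.76. Depdc5, a subunit of the GATOR complex that restrains mTORC1, was at 3.54, 3.996 and 3.64 FPKM for WT against 5.21, 5.13 and 4.76 for KO (log2 fold change 0.35, or 0.21 with the length trend removed; SE 0.09 and limma adjusted p = 0.302 for the former). Sesn1, a leucine sensor family member, was at 17.7 ± 1.91 and 21.6 ± 3.01. Prkaa2, a catalytic subunit of the energy sensor AMPK, was at 6.29 ± 1.37 and 9.35 ± 0.91 FPKM without overlap, and Cab39, a partner of the AMPK kinase Lkb1, at 31.2 ± 3.66 and 36.1 ± 1.70.

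Among the outputs of mTOR, Rps6, the ribosomal protein that S6 kinase phosphorylates, was at 130, 137 and 139 FPKM among the WT libraries against 108, 105 and 123 among the KO libraries. All its KO values lay below all its WT values. KO minus WT came, as log2, to -0.27 (SE 0.11, adjusted p = 0.332 by limma). With the length trend removed Rps6, a gene of 1586 bases, was at -0.14 (SE 0.10). Of the 13 tested outputs 8 were positive and 5 negative, with a median of 0.03.

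**Figure D4:**
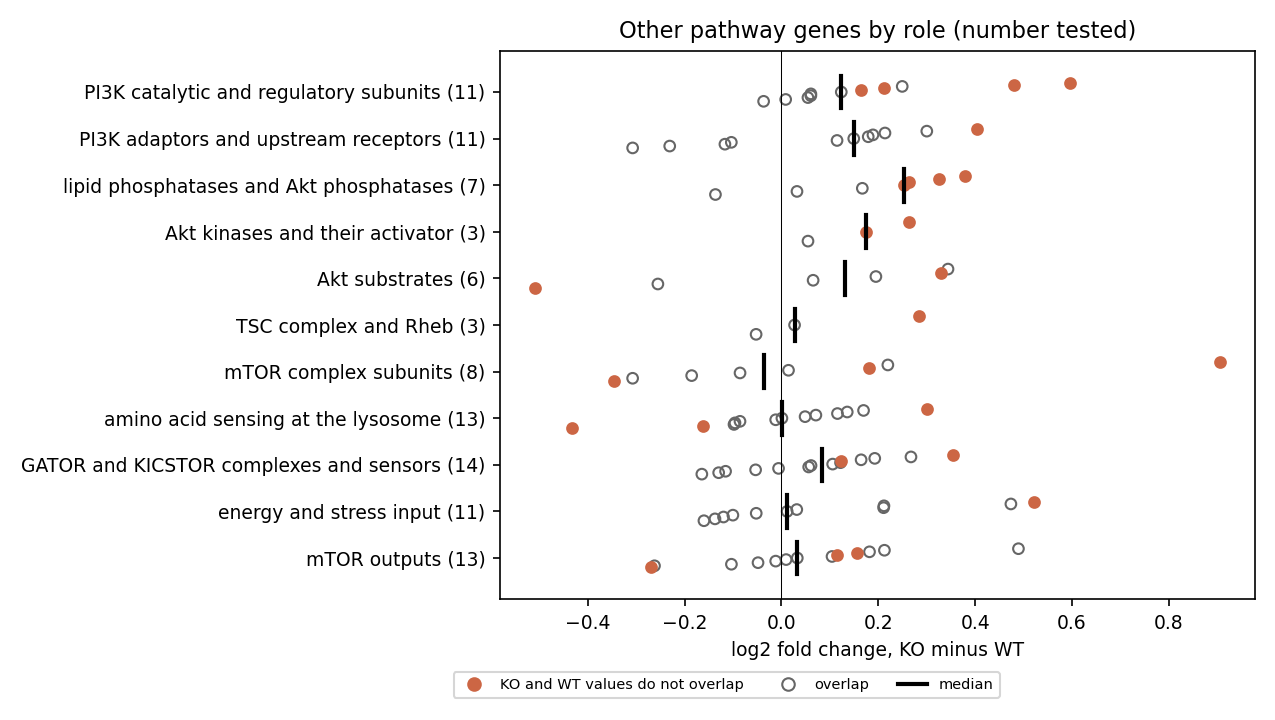
Log2 fold change (KO minus WT, of FPKM + 1) of the 100 tested other pathway genes by role, filled where the 3 KO and 3 WT values do not overlap, with a black line at the median of each role. The medians of the PI3K and phosphatase roles are 0.12 and 0.25, and Deptor is the point at 0.91.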

How the data were processed

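RNA from 3 WT and 3 KO libraries was isolated on Qiagen columns before SMARTER mRNA library preparation, per the labels' protocols. The deposited table holds FPKM per Ensembl gene for 6 libraries, with gene lengths and positions per the file headers. The submitters' processing notes name GRCm38 and mm10. For aligner, counter, annotation version and strand use, the sources used here give nothing. The product of FPKM and gene length was a whole number of equal steps in 100% of values (tolerance 0.01 reads), so reads were recovered from it. The implied library sizes were 0.964 to 1.05 times the summed reads.

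The filter was a mean of 1 FPKM or more over the 6 libraries. Genes above it were tested with limma 3.58.1 in R 4.3.3 on log2(FPKM + 1), using a two-sided moderated test with a variance trend and Benjamini-Hochberg adjustment over all 13087 genes (threshold 0.05). SE is moderated. The fit was checked on simulated data with known changes. Those data had the same noise setting for all genes and no length trend or difference in tissue makeup. The check therefore does not cover these features of the real libraries. Ratios used an exact permutation test. Same-numbered libraries deviated together (correlations across genes of 0.17, 0.15 and 0.33, the first 2 smaller than the 0.28 of WT2 with KO1). The labels do not state a pairing, and these correlations do not settle whether the numbers pair libraries. The main tests were unpaired, and a fit with the replicate number as a block was run as an alternative.

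The length trend was removed per library with loess (span 0.4). The 8 genes and all lists were chosen with earlier results of these data known. The text names the 8 genes, their direct partners, and from each role the gene of smallest p and the gene of highest level. Some genes and 1 ratio that these rules take are not reported here. The genes nearest in pattern to Mtor and Nyap2 were the 3 of highest Pearson r.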

Additional observations from a re-analysis of the deposited data

How the results depend on the processing

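None of the 8 genes and none of the other pathway genes passed an adjusted p of 0.05 in any of 15 alternative fits: counts of 0 with another pseudocount or filter, with a common sum or quantile normalization, without a variance trend, with the length trend removed, with the replicate block, with limma-voom on recovered reads (added after seeing the data), or without any 1 library. The smallest adjusted p that any of the 8 reached was 0.166, for Nyap2. Over all genes, the single call was lost (0) with the replicate block, no filter, quantile normalization, no variance trend or the length trend removed, and leaving out 1 library gave 0 to 9, the 9 without WT3. The replicate block changed no other call. The count of the 8 genes at an unadjusted p under 0.05 was 1 with the length trend removed, 1 with a filter at a mean of 5 FPKM, which leaves out Nyap2 and Rictor, and 2 to 3 without 1 library. Of the other pathway genes, 7 to 15 were higher and 2 to 5 lower at that p over the alternatives. All 8 kept their direction wherever tested. Of 35 tested genes that the naming rule takes, 10 changed direction under some setting. With the length trend removed Rheb was at -0.056 and Akt2 at -0.018, and with a common sum Pik3r2 was at 0.020. Without 1 library the log2 fold change ran from -0.092 to 0.076 for Mlst8, -0.18 to 0.013 for Mapkap1, -0.15 to 0.12 for Tbc1d7, -0.075 to 0.11 for Rheb, -0.19 to 0.35 for Akt2, -0.22 to 0.056 for Rps6kb2, -0.25 to 0.054 for Nyap1, -0.17 to 0.098 for Pik3r2, -0.013 to 0.13 for Gsk3a and -0.16 to 0.12 for Rraga. The cause was not tested. The 4 ratios kept their direction, and the sign-flip test on pairs (replicate block) gave an exact p of 0.25 for Rictor to Rptor, the smallest that 3 pairs allow. Planned tests with count models, and voom with TMM scaling, were not run, since the deposited unit is FPKM.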
